A study of Homo sapiens with 8 samples.

Results

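The zinc finger genes were taken by symbol, as every gene in 3 tables of poly(A) site pairs whose name begins with ZNF, ZSCAN, ZKSCAN, ZBTB or ZFP followed by a digit. This gave 132 of the 3656 listed genes, with 262 of the 7615 distinct pairs and 318 of the 8982 distinct poly(A) sites. Of these genes 107 had symbols starting with ZNF, 14 with ZBTB, 6 with ZFP, 3 with ZKSCAN and 2 with ZSCAN. Shares given over all genes, sites, pairs or ends include these genes.

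The tables came from 3′-end sequencing of MDA-MB-231, a human breast cancer line. All 8 samples carried CRISPR interference, in which an inactive Cas9 fused to a KRAB repressor domain lowers transcription at the gene a guide names, and all carried lentiviral guides. The 4 groups of 2 replicates were a control with paired control guides (sgCTRL-sgCTRL), HNRNPC KD (sgHNRNPC-sgCTRL), PABPC4 KD (sgCTRL-sgPABPC4) and a double KD (sgHNRNPC-sgPABPC4). Each single KD therefore also carried a control guide. Each table sets 1 KD group against the same control, so the tables share their control libraries. The table used for PABPC4 KD joins letters of both targets in its name in a way that spells no group. It was taken as PABPC4 KD by elimination, and each PABPC4 KD count rests on that choice. The tables hold no value for single libraries, and the depth behind each site and the extent of each KD were not analysed here.

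Alternative polyadenylation is the use of more than 1 cleavage and poly(A) site in a gene. A choice between sites in the terminal exon changes the length of the 3′ UTR, while a site in an upstream intron can end the message before the coding sequence is complete. HNRNPC is a nuclear protein that binds runs of U in pre-mRNA. PABPC4 is a poly(A)-binding protein found in cytoplasm and nucleus. Genes with these symbols typically encode C2H2 zinc finger proteins, which bind DNA through arrays of small zinc-coordinating units. Many carry a KRAB domain that recruits corepressors, the ZBTB proteins carry a BTB dimerisation domain, and ZSCAN and ZKSCAN proteins carry a SCAN domain. In KRAB zinc finger genes the finger array is typically encoded by a single large terminal exon, and many of these genes lie in clusters on chromosome 19.

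The genes were chosen by symbol and not by function, and some are not known as DNA-binding transcription factors. ZFP36L1 encodes a CCCH protein that binds AU-rich elements in mRNA and promotes decay, ZNF207 encodes a spindle and kinetochore protein also known as BuGZ, ZNF185 encodes a LIM-domain protein of the actin cytoskeleton, and ZFP91 is known as a ubiquitin ligase. ZNF271P and ZNF252P are annotated as pseudogenes, and the other 130 genes as protein-coding. On hg38, 56 of the 132 genes (42.4%) were on chromosome 19, against 194 of 3652 placed genes of the whole tables (5.31%).

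A site was named in the tables either by a transcript that ends there or by a genomic position. Among zinc finger sites 171 of 318 (53.8%, 95% Wilson interval 48.3 to 59.2) were named by a transcript, and the share over all sites was 53.3%. With the same version, 156 of the 171 transcripts were found in Gencode 44 and so had a place on hg38, and these are called placed ends. Of the 147 positions, 9 fell inside the hg38 limits of their own gene (6.12%, interval 3.25 to 11.2), against 522 of 4190 over all genes (12.5%). The build of the positions is not given in the sources used here, and they were used for distances within a gene alone.

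The ends below are examples and not a sample of the zinc finger ends, since 7 of the 9 shown hold a hexamer in the printed bases, while 56 of all 156 placed zinc finger ends lacked one in a window of 40 nt. Each run is the last 30 bases up to and including a placed end, read 5′ to 3′ on the gene's strand of hg38. Capitals mark AATAAA or ATTAAA, the main poly(A) signal hexamers, or a stop codon where the annotated transcript ends on it. All 3 placed ends of ZNF84 are shown because the transcript model at the first has a shorter coding sequence. Both later ends of ZNF766 are shown because they belong to its longer coding sequences. The first and second placed ends of ZNF207 are shown because it had the most sites. Both placed ends of ZNF234 are shown because the first lies on the stop codon.
ZNF84 ENST00000542874.5, chr12:133056973-133057002, plus strand: taacatgatgtggcaccaggataaccaaga
ZNF84 ENST00000543758.5, chr12:133059577-133059606, plus strand: AATAAAttggttattgaaacatctaagaca
ZNF84 ENST00000392319.6, chr12:133063269-133063298, plus strand: aatatcctAATAAAttctcatgtttgcttc
ZNF766 ENST00000593612.1, chr19:52292695-52292724, plus strand: aacAATAAAgttgaaattttccaaagtgtg
ZNF766 ENST00000439461.6, chr19:52296017-52296046, plus strand: atcAATAAAttgatattgtatatgtctcta
ZNF207 ENST00000321233.10, chr17:32370422-32370451, plus strand: catAATAAAattcatagttaccaatgcagt
ZNF207 ENST00000581531.5, chr17:32380344-32380373, plus strand: tgcataaagATTAAAttggaacatacctta
ZNF234 ENST00000592437.5, chr19:44158090-44158119, plus strand: ttgtcagagggaggaagttctacaaggTGA
ZNF234 ENST00000426739.7, chr19:44160284-44160313, plus strand: ATTAAAataccaaaaagactaagtaacata

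The first end of ZNF84 held neither hexamer in these 30 bases, and its later ends and both ends shown for ZNF766 held AATAAA. In ZNF84 the hexamer began the run at the second end and lay 16 bases before the third end. The first end of ZNF207 held AATAAA and the second ATTAAA. The third placed end of ZNF207, not shown, held neither hexamer. The first end of ZNF234 stopped on TGA, with 0 bases of annotated 3′ UTR, and the second held ATTAAA.

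The first comparison asked which zinc finger genes and sites were listed in each KD table. HNRNPC KD listed 106 of the 132 genes (80.3%), where 84.4% of all listed genes were in that table. PABPC4 KD listed 110 (83.3%), against 84.4% of all genes, and the double KD listed 117 (88.6%), against 90.0%. All 3 tables held 92 of the zinc finger genes (69.7%), and 73.0% of all genes. The intervals of the zinc finger shares covered the shares over all genes in each case.

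Counted by pairs, 176 of 262 zinc finger pairs (67.2%, interval 61.3 to 72.6) were listed in HNRNPC KD, where 77.0% of all pairs were listed. In PABPC4 KD the table held 197 pairs (75.2%), against 78.2%, and the double KD held 221 (84.4%), against 84.8%. Pairs listed in every table numbered 145 (55.3%, interval 49.3 to 61.2), against 61.6%. The lower share in HNRNPC KD was seen in pairs and, less widely, in sites, of which 243 of 318 (76.4%, interval 71.5 to 80.7) were listed there, against 81.9% of all sites. A gene with more sites gives many pairs that share those sites, so pairs are not independent items. Without ZNF207, the gene with the most pairs, 161 of 234 pairs (68.8%) were in HNRNPC KD.

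**Figure D1:**
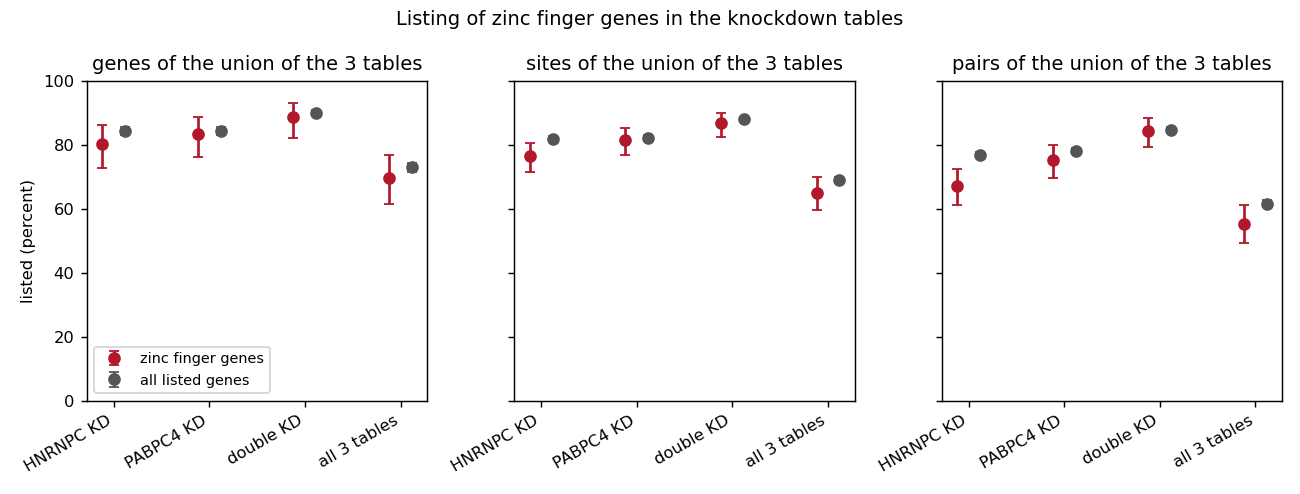
Share of zinc finger genes, sites and pairs (red) and of all listed genes, sites and pairs (grey) found in each KD table and in all 3 tables; the y axis is percent of the union of the tables and bars are 95% Wilson intervals. The red point lies below the grey point for pairs in HNRNPC KD, at 67.2% against 77.0%, and pairs that share sites are not independent. For genes in HNRNPC KD the points are at 80.3% and 84.4%, and the red interval (72.7 to 86.2) covers the grey point.

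A single table listed 23 of the 132 genes (17.4%), against 14.3% of all genes. By pairs the share in 1 table was 28.6% (interval 23.5 to 34.4), against 21.6% of all pairs. Of the 132 genes, 3 were in HNRNPC KD alone (2.27%, against 3.20% of all genes), 7 in PABPC4 KD alone (5.30%, against 4.08%) and 13 in the double KD alone (9.85%, against 7.03%). Each interval by genes covered the share over all genes. PABPC4 KD alone held 9.92% of pairs (6.86 to 14.1), against 6.08%, and 7.23% of sites (4.87 to 10.6), against 4.74%. The double KD alone held 16.0% of pairs (lower limit 12.1), against 10.5%. HNRNPC KD alone held 2.67% of pairs (1.30 to 5.41), against 5.07%. Without ZNF207, PABPC4 KD alone held 11.1% of pairs (7.70 to 15.8). The double KD alone then held 12.4% (8.77 to 17.2), which covers the overall share. ZBTB37 and ZNF180 were listed in HNRNPC KD alone, each with 2 sites. ZBTB2, ZBTB5 and ZNF107 were listed in the double KD alone, also with 2 sites each. ZNF180 had a pair of placed ends 1209 nt apart that share a stop codon, with 765 nt of 3′ UTR at the proximal end and 1974 nt at the distal end. Absence from a table says that the pair was not in that list, and the reads behind it are not known.

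Most zinc finger genes had few sites. There were 92 genes with 2 sites (69.7%), 30 with 3 (22.7%), 9 with 4 (6.82%) and 1 with more. Over all genes 67.9% had 2 sites, 22.0% had 3 and 7.39% had 4. At 123 of the 132 genes (93.2%, interval 87.5 to 96.4) the most distal site was a transcript end, and over all genes the share was 89.5%. A position came first and a transcript end last in 92 genes (69.7%, interval 61.4 to 76.9), against 59.8% of all genes.

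ZNF207, on the plus strand of chromosome 17, had 8 sites and 28 pairs. HNRNPC KD and PABPC4 KD each listed 6 of its sites, and the double KD listed all 8. The other two were the most proximal site and the fourth, both named by position, and they appeared in the double KD alone. Its position-named sites were 443 to 15131 nt apart. Of its 3 placed ends, the first lay 9922 nt before the second and 10505 nt before the third. The transcript at the first end had 1437 coding nt and 692 nt of 3′ UTR, and the transcript at the third had 1482 coding nt and 3084 nt of 3′ UTR with another stop codon. The second belongs to a transcript annotated for nonsense-mediated decay, the pathway that removes messages with an early stop. The third placed end lacked a poly(A) signal and was followed by 18 A in the next 20 nt, on which oligo(dT) can prime. Its distances of 583 nt from the second end and 10505 nt from the first rest on that end. Whether the third placed end is a cleavage site was not tested.

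The other genes with many sites had 4 each. ZBTB7A, which encodes a repressor of fetal globin genes, had 3 sites listed for each single KD and 4 for the double KD. ZFP91 likewise had 3, 3 and 4, all named by position and 1283 to 8714 nt apart. For ZKSCAN1, HNRNPC KD listed 3 sites, PABPC4 KD listed 4 and the double KD listed 2. Its most proximal site was listed in PABPC4 KD alone.

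ZNF24 had 3, 4 and 4 sites in HNRNPC KD, PABPC4 KD and the double KD, and its position-named sites were 564 to 3651 nt apart. ZNF462, a large zinc finger gene, had 3, 2 and 4. ZNF805 had 4, 3 and 4, with positions 3545 to 7160 nt apart. ZNF445, known for its part in keeping genomic imprints, had 4, 3 and 3, and its first site was in HNRNPC KD alone. ZNF639 had 3, 4 and 3, with positions 425 to 923 nt apart. The pseudogene ZNF271P had 3 sites in each table but 4 in all, since its distal transcript end was in PABPC4 KD alone and its second site was missing there. No single KD table was the richest in sites for all of these genes.

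Both ends were placed on hg38 in 38 pairs from 30 zinc finger genes. The median distance was 2191 nt (interval 1262 to 2688), and over all 1224 placed pairs it was 2859.5 nt (2582 to 3205). In all 38 pairs the end called distal lay downstream. The shortest distances were 558 nt in ZBTB20, 574 nt in ZNF461, 583 nt in ZNF207, 623 nt in ZNF101 and 692 nt in ZNF827. The longest were 49002 nt in ZNF143, 12642 nt in ZNF394, 10505 nt in ZNF207, 8455 nt in ZNF638 and 6296 nt in ZNF84. Pairs named by 2 positions had a median distance of 1962 nt (1283 to 3034) in 29 zinc finger genes and 1518.5 nt (1427 to 1631) over all genes.

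**Figure D2:**
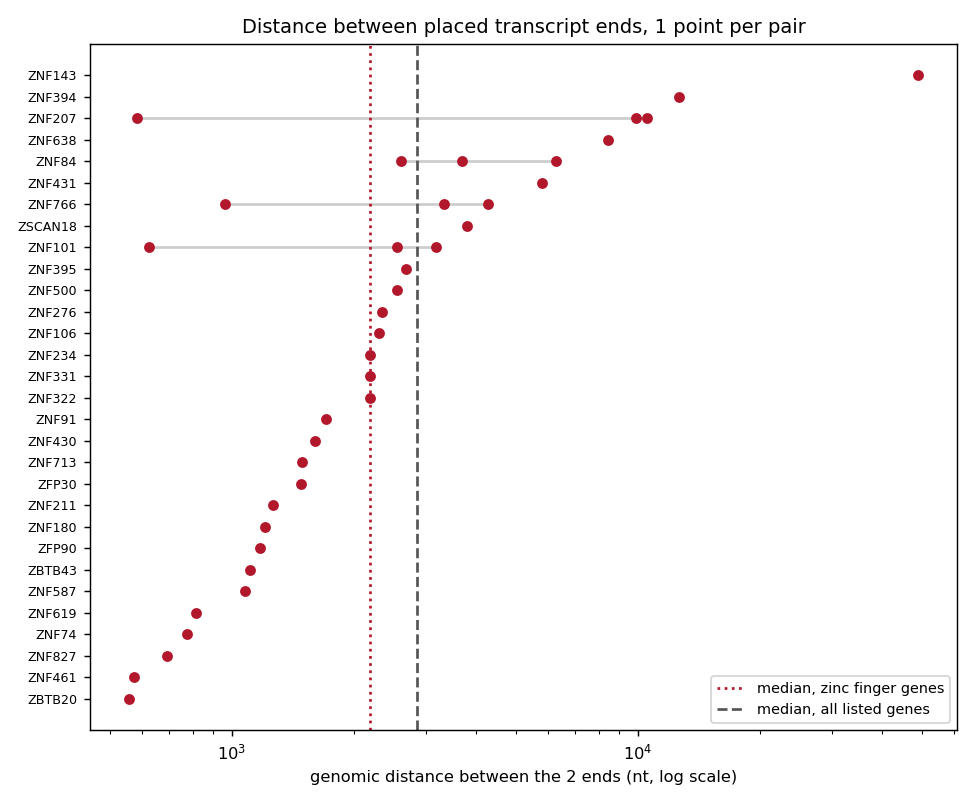
Genomic distance in nt, on a log axis, between both ends of each placed pair; each row is a zinc finger gene, each point a pair, and lines mark the medians of zinc finger genes (2191 nt) and of all listed genes (2859.5 nt). ZNF143 stands apart at 49002 nt, and the pairs of ZNF207 fall at 583 nt and at 9922 and 10505 nt.

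The annotated type of the placed ends came next. Protein-coding transcripts gave 129 of the 156 placed zinc finger ends (82.7%, interval 76.0 to 87.8), against 75.5% over all genes. Retained-intron transcripts gave 11 (7.05%, against 9.38%), transcripts marked for nonsense-mediated decay gave 8 (5.13%, against 6.82%), and 7 (4.49%, against 5.90%) had no coding sequence defined. In ZNF638 the proximal end belonged to a retained-intron transcript, and both ends of ZNF394 belonged to transcripts with no coding sequence defined. In ZNF827 the types were retained intron and no coding sequence defined. Only 4 ends (2.56%) were tagged as incomplete at the 3′ end, those of ZNF143, ZNF148, ZNF292 and ZNF322, and an incomplete model need not end at a poly(A) site.

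The layout of the coding sequence set the zinc finger genes apart from the whole tables. With 1 protein-coding transcript per gene, the one with the longest coding sequence among its placed ends, a median of 84.4% of coding bases lay in the terminal exon (interval 79.8 to 86.0, n = 104 genes). Over all listed genes the median was 10.8% (interval 10.3 to 11.6, n = 2645 genes). Over 50% of coding bases lay in the terminal exon in 80 of 104 zinc finger genes (76.9%), against 12.6% of all genes. In 14 of 104 zinc finger genes (13.5%, against 3.71% of all genes) the terminal exon held the whole coding sequence, among them ZNF281 with 2688 coding nt and ZBTB5 with 2034 coding nt.

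The layout varied within the set. Genes with ZNF symbols had a median of 85.3% (interval 81.6 to 86.6, n = 89), and 71 of these 89 were above 50%. Genes with ZBTB symbols had a median of 26.6% (interval 16.1 to 100, n = 10), with 4 of 10 above 50%. At the low end were ZNF207 with 0% and ZNF106 with 1.01%. ZNF766 also read low, at 2.68%, in the transcript with 1416 coding nt. Some low values came from short coding models, in ZNF682 (8.27% of 133 nt), ZNF226 (17.5% of 285 nt) and ZNF24 (2.41% of 582 nt). Others came from long models, such as ZNF462 (2.77% of 7521 nt). Only transcripts at placed ends were counted, so a longer coding sequence of a gene could be missed. The median 3′ UTR of the 104 zinc finger transcripts was 2933.5 nt (interval 2078 to 3282), against 2336 nt (2230 to 2434) over all genes. Where transcripts of a gene tied in coding length, the ID that sorts last was taken, whatever its 3′ UTR. ZNF234 thus entered with 0 nt and not 2194 nt, and ZNF331 with 129 nt and not 2317 nt. In the other direction, ZBTB43 entered with 4297 nt and not 3190 nt.

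**Figure D3:**
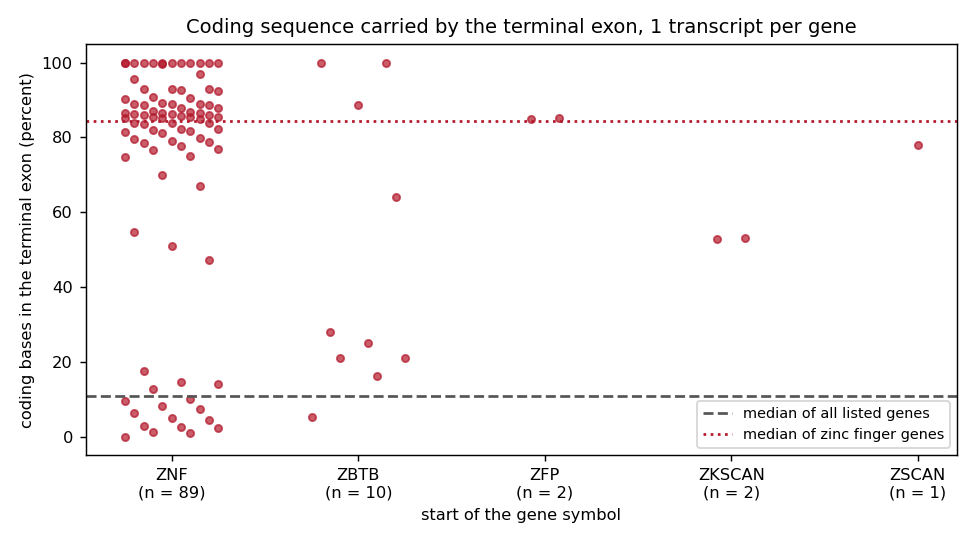
Percent of coding bases in the terminal exon, 1 point per zinc finger gene, grouped by the start of the symbol, with lines at the medians of zinc finger genes (84.4%) and of all listed genes (10.8%). ZNF genes form a dense group near 85% and a smaller one below 20%, and ZBTB genes are spread over the whole range.

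Among the placed pairs, 25 of 38 joined 2 protein-coding ends (65.8%, interval 49.9 to 78.8), against 41.6% over all genes. In 13 of these 25 (52.0%, against 57.0%), from 13 genes, both transcripts had the same stop codon, and the distal one had the longer 3′ UTR. The median 3′ UTR was 674 nt (range 0 to 3190) at the proximal end and 2317 nt (911 to 4481) at the distal end. The added 3′ UTR had a median of 1485 nt (interval 1107 to 2298), against 1915 nt (1709 to 2131) over the 290 such pairs of all genes. ZBTB20, a repressor of the BTB family, went from 353 to 911 nt. Neither of its ends held a poly(A) signal. The gene, on the minus strand, is annotated down to 114314500, beyond this distal end at 114338094. ZBTB43 went from 3190 to 4297 nt, and ZFP30 from 2493 to 3972 nt. The proximal end of ZBTB43 lacked a poly(A) signal and was followed by 17 A in 20 nt. That of ZNF713, also among these pairs, lacked a signal and was followed by 18 A. The proximal end of ZFP30 held AATAAA and that of ZNF101 held no signal, and neither was followed by A-rich sequence. ZNF101 went from 29 to 3206 nt, the shortest proximal 3′ UTR above 0 in the set.

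The first ends of ZNF234 and ZNF91 were among these 13 pairs. Their models were not tagged as incomplete, yet each ended on its last coding base. Both ends lacked a poly(A) signal and were followed by A-rich sequence, with 16 A in the next 20 nt at ZNF234 and 12 at ZNF91. ZNF234 had 0 nt of 3′ UTR at that end and 2194 nt at the other. ZNF91, which represses SVA retrotransposons, had 0 and 1707 nt. Such complete models were 2 of 129 protein-coding zinc finger ends and 3 of 3186 over all genes, these included.

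In the other 12 coding pairs, from 9 genes, the ends belonged to transcripts with different stop codons. Leaving out the 2 pairs with an incomplete model, the median coding length was 286.5 nt (range 93 to 1437) at the proximal end and 1627.5 nt (1407 to 2217) at the distal end. In 8 of these 10 pairs (80.0%, interval 49.0 to 94.3) the proximal transcript had less than 50% of the coding length of the distal one, against 34 of 93 (36.6%, interval 27.5 to 46.7) over all genes. At 6 of these 8 pairs the proximal end lacked a poly(A) signal and was followed by A-rich sequence, which oligo(dT) can prime on, namely at both pairs of ZNF84, both of ZNF766, ZNF395 and ZNF430. Over all genes 11 of 34 such pairs (32.4%) had such a proximal end. Whether these ends are cleavage sites was not tested. The zinc finger pairs came from few genes, and the pairs of ZNF84 and ZNF766 share ends.

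ZNF84, on chromosome 12, had 3 ends, all listed in each of the 3 tables. The coding length was 255 nt at the first end, 2214 nt at the second and 2217 nt at the third, with 95, 674 and 4366 nt of 3′ UTR. The first end, of a transcript model with a short reading frame, lacked a poly(A) signal and was followed by 12 A in 20 nt, and both later ends share a stop codon and differ in the 3′ UTR. ZNF766, on chromosome 19, also had 3 ends in each table, with 318, 1416 and 1407 coding nt and 1726, 538 and 4848 nt of 3′ UTR.

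ZNF431, also on chromosome 19, had 123 coding nt at the proximal end and 1731 at the distal end, which carried 12019 nt of 3′ UTR, the longest of these pairs. Its pair was listed in PABPC4 KD and the double KD. ZNF430, on the same chromosome, had 220 and 1713 coding nt and was listed in PABPC4 KD alone. ZNF395 had 93 and 1542 coding nt and was listed in all 3 tables. The incomplete models gave 525 against 1917 coding nt in ZNF143, an activator of transcription whose pair was listed in PABPC4 KD alone, and 78 against 1209 in ZNF322. ZNF461 had 126 coding nt at a proximal end marked for nonsense-mediated decay and 1692 at the distal end.

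**Figure D4:**
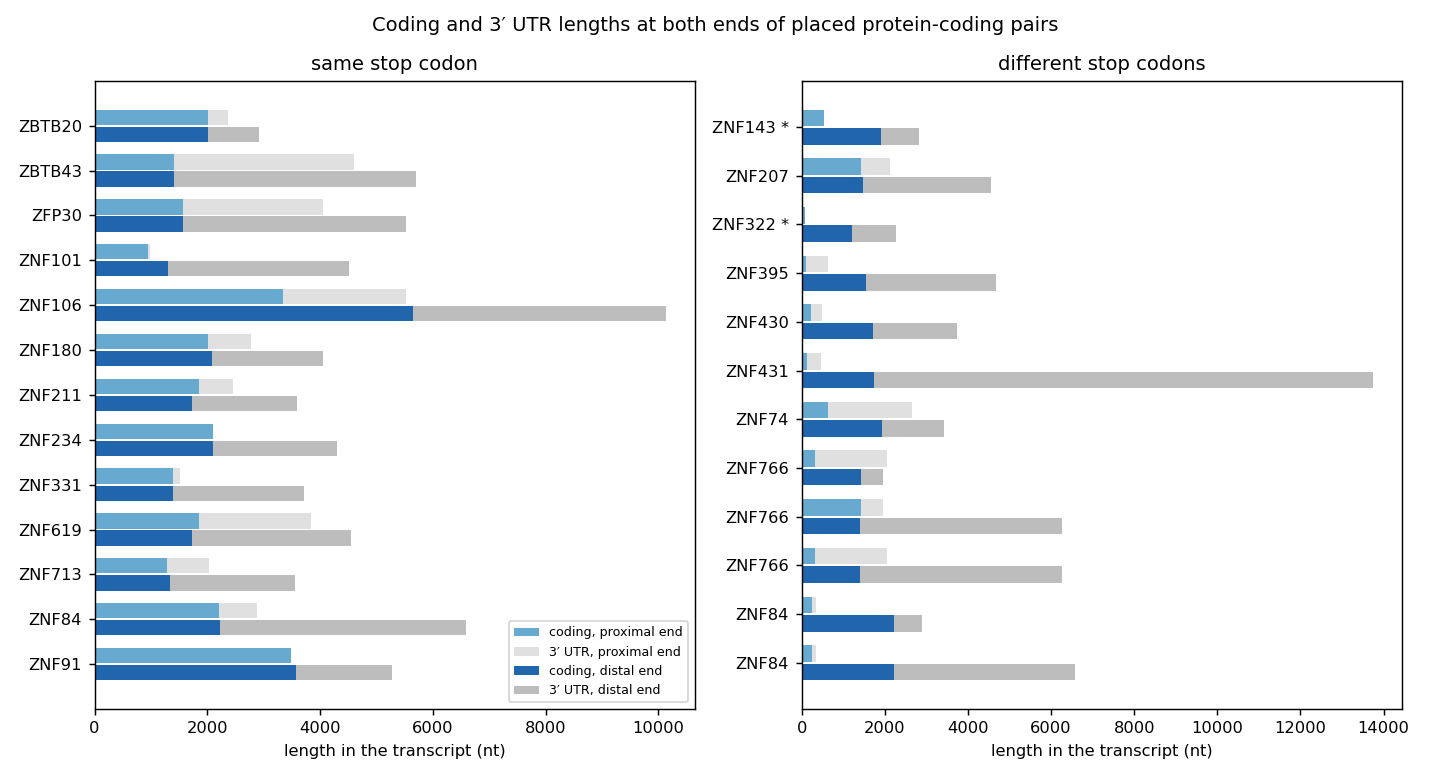
Coding (blue) and 3′ UTR (grey) length in nt of the transcripts at the proximal (light) and distal (dark) end of each placed protein-coding pair, for pairs with the same stop codon on the left and different stop codons on the right; an asterisk marks a pair with an incomplete model. On the right the light blue bars are short in ZNF84, ZNF395, ZNF430 and ZNF431, from 93 to 255 nt, beside 1542 to 2217 nt at their distal ends.

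Sequence around the placed ends was searched on the gene's own strand, which reads as the RNA does. AATAAA or ATTAAA stood in the 40 nt before the end in 100 of 156 zinc finger ends (64.1%, interval 56.3 to 71.2) and in 66.4% of all 4220 placed ends. A run of at least 5 T (TTTTT, U in the RNA), of the kind HNRNPC binds, stood in the 100 nt before the end in 52 (33.3%, interval 26.4 to 41.1), against 34.5% of all ends. A run of at least 8 T was in 0 of 156 ends (Wilson interval 0 to 2.40%, and 1.92% if a count of 0 is read as at most 3 ends), and in 129 of all ends (3.06%). These letters describe the window and say nothing of binding.

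A-rich sequence just after an end matters for this assay, since oligo(dT) can prime on A-rich stretches within RNA as well as on poly(A) tails. An end counted as A-rich when the next 20 nt held 12 or more A in any order, or 6 in a row. Such sequence followed 23 of 156 zinc finger ends (14.7%, interval 10.0 to 21.2), against 9.55% of all ends. None of these 23 ends held a poly(A) signal, whereas 100 of the 133 other ends did (75.2%). Over all genes 365 of 403 A-rich ends (90.6%) lacked the signal. Of the 11 retained-intron ends 7 were A-rich (63.6%, interval 35.4 to 84.8), against 22.0% of retained-intron ends over all genes.

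The 38 placed pairs had fewer poly(A) signals and more A-rich sequence at their proximal ends than at their distal ends. A poly(A) signal stood at 12 proximal ends (31.6%, interval 19.1 to 47.5) and at 27 distal ends (71.1%, 55.2 to 83.0), and over all genes the shares were 29.5% and 77.2%. A-rich sequence followed 16 proximal ends (42.1%, 27.9 to 57.8) and 4 distal ends (10.5%, 4.17 to 24.1), against 23.7% and 5.64% over all genes. A run of 5 T preceded 9 proximal (23.7%) and 15 distal ends (39.5%), against 27.5% and 35.2%, with overlapping intervals. Some ends belong to several pairs, and 34 distinct ends stood on each side. The part of oligo(dT) priming within transcripts in which sites were listed was not tested.

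**Figure D5:**
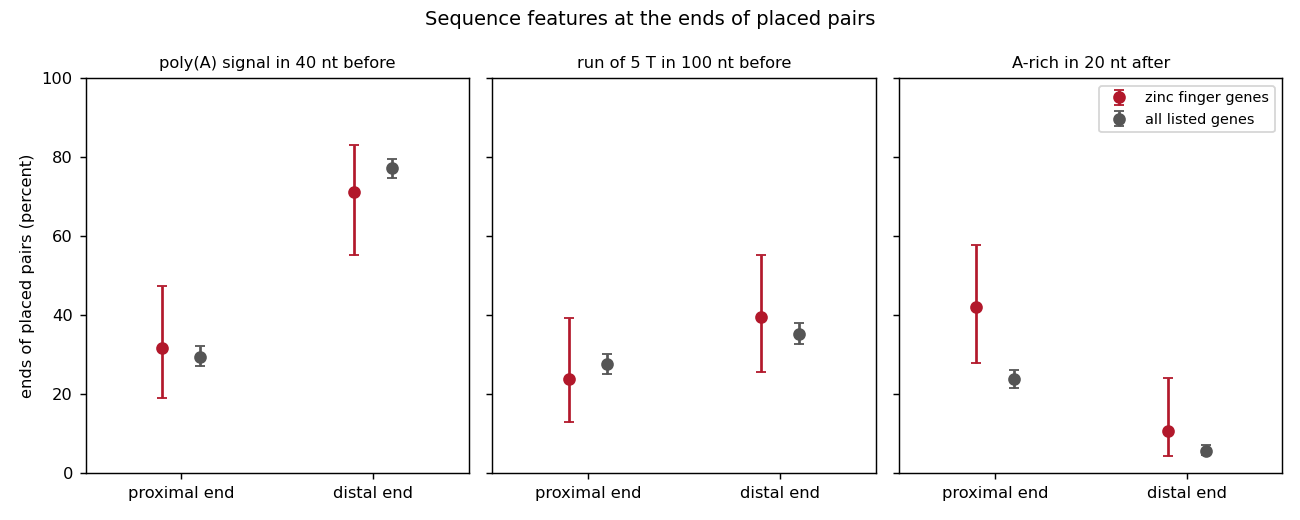
Percent of proximal and distal ends of placed pairs with a poly(A) signal in the 40 nt before, a run of 5 T in the 100 nt before, or A-rich sequence in the 20 nt after, for zinc finger genes (red) and all listed genes (grey), with 95% Wilson intervals. Proximal zinc finger ends show the signal in 31.6% and A-rich sequence in 42.1%, and distal ends in 71.1% and 10.5%.

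The study designed reporter sequences from HNRNPC binding sites in 3′ UTRs. Of 98 such sequences, 66 matched a transcript of a listed gene exactly. They matched 66 of the 3656 listed genes, and 1 of the 132 zinc finger genes, ZBTB4. The 98 sequences are fewer than the mRNAs that the paper counts as bound by HNRNPC. Lack of a match is therefore no measure of binding. ZBTB4 encodes a protein that binds methylated DNA. The match was 87 nt long and ended 1579 nt before the distal end of the listed transcript ENST00000311403.4, within its terminal exon. Its longest run of T, in capitals, is shown with flanking bases on the minus strand of hg38, since it is the only reporter match in the set.
ZBTB4, chr17:7461002-7461031, minus strand: tttctccctgTTTTTTTTTcctgatggttt

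The run was 9 T long, and the ZBTB4 pair, of a position and this transcript end, was listed in all 3 tables.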

How the data were processed

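QuantSeq REV libraries of 8 samples in 4 groups of 2 replicates were made by the authors. Per the submitters' processing notes, the reads were handled with UMI-tools and Salmon 0.14.1 on hg38. By the methods of the study, Salmon counted reads at unique transcript 3′ ends of Gencode 33. The normalised abundances went into APAlog, a multinomial logistic regression over pairs of sites. Those methods do not say how the sites named by a position arose, which were 46.2% of zinc finger sites. Each of the 3 deposited tables sets a KD group against the same control. Of their columns, only the names of the sites and genes were used. The deposited columns of the authors' own comparison (logAPAR, p and q) hold the results of the study and were not used, so no effect of a KD on site usage is reported. The tables hold 0 columns for single samples, so depth and replicate spread are unknown.

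Members were the genes whose symbols begin with ZNF, ZSCAN, ZKSCAN, ZBTB or ZFP followed by a digit. Members and lists were chosen with earlier results of these data known. Transcript names were matched with their version to Gencode 44 on hg38, and sequences were read from hg38. Shares carry 95% Wilson intervals and medians carry 95% order-statistic intervals. These intervals treat each listed item as 1 draw, and they hold no replicate error. Named genes were the 10 with most sites, the 5 with the shortest and the 5 with the longest distance between placed ends, up to 8 with different stop codons, the first 5 listed in 1 table and any matching a reporter sequence. Other names were chosen after their values were seen. Python 3.11.15 with pandas 2.3.3, scipy 1.17.1 and matplotlib 3.10.9 was used, and the counting functions were tested on simulated sequences. A planned count of zinc fingers per protein was not run, and the sequences of some ends are not reported here.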

Additional observations from a re-analysis of the deposited data

How the results depend on the processing

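No paired analysis was possible because no library has a value of its own in the files. For the same reason no replicate could be left out. Of the alternatives, the share of zinc finger items in all 3 tables was 55.3% in pairs, 69.7% in genes and 65.1% in sites, the last added after seeing the data. Transcript ends were 53.8% of sites, and 17.9% of pairs had 2 transcript ends. Genes with 3 or more sites were 30.3%, and 23.1% with sites listed in all 3 tables alone. A poly(A) signal was at 64.1% of ends, and AATAAA alone at 53.8%. Runs of T fell from 33.3% to 17.9% in a window of 50 nt and to 0% at 8 T or more. These moves follow from what each alternative counts. The other alternatives stayed within the interval of their main value or within 1.5 times a count. They were symbols that start with ZNF, pairs in all 3 tables, 1 pair per gene, names without version, the pairs without ZNF207 (also added after seeing the data), a window of 50 nt for the signal, and a run of 6 A. A stricter count of zinc fingers was not run. Depth, replicate error and the size of any change in site usage were not analysed here, so the listing describes which sites were tabulated and not how much each was used.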
